A study of Mus musculus with 20 samples.

Results

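The effect of dietary restriction on the liver of DNA repair-deficient progeroid mice was measured as the difference between 5 restricted and 5 control animals, which are 10 of the 20 arrays of the series. All 17097 genes that could be read from a probe set with 1 gene symbol entered the comparison. The 10 mice were Ercc1Δ/- animals of an F1 C57BL6J/FVB background and were 11 weeks old, and total RNA of 1 liver went onto each Affymetrix array. Every mouse, controls included, ate AIN93G synthetic pellets. Controls ate freely. Restriction began at 7 weeks of age with 10% less food, which the protocol gives as 2.1 g per day, and rose in weekly steps to 30%, given as 1.6 g per day, at 9 weeks; the protocol does not name the genotype for these amounts. Restricted mice received their food just before the dark period, in which mice are active. A further 10 wild type littermates, again 5 on each diet, served here to test where the response of the progeroid animals differed; free intake of wild type mice was 3.0 g per day and their ration at 30% restriction was 2.1 g. The time of day at which livers were taken, the sex of the mice and any processing batch are not given in the labels.

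ERCC1 and its partner XPF form the nuclease that cuts damaged DNA in nucleotide excision repair and helps to remove crosslinks between the strands. Mice with little ERCC1 activity age early, and the liver is among the organs that are affected. Food restriction is known to act on the liver through several routes. Pulses of growth hormone keep up the male pattern of liver gene expression, and a flatter profile of the hormone gives the female pattern. Feeding time and glucocorticoids set the phase of the liver clock, in which the activators CLOCK and BMAL1 (encoded by Arntl) drive the PER and CRY repressors and output factors such as DBP and TEF. Secretory load sets the amount of chaperones in the endoplasmic reticulum, the compartment in which plasma proteins fold.

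Values are robust multi-array average (RMA) levels on the log2 scale, so a difference of 1 unit is a change by a factor of 2. They are relative brightness values of a probe set, and levels of different genes are not compared. A gene is said to rise or fall where limma, fitted to all 20 arrays, gave an adjusted p under 0.05 (Benjamini-Hochberg over all genes). The 10 progeroid arrays correlated with each other between 0.986 and 0.997, and 0 pairs of arrays in the series were identical. The hepatocyte product Alb lay between 14.28 and 14.40 in all 10 livers. Eif2s3y, a Y-linked gene chosen after its values were seen, lay between 9.66 and 10.19 in all 10. For Gapdh the 3' probe set exceeded the 5' one, which reflects how intact the RNA was, by 1.381 in control animal 327 and by 0.581 to 1.125 in the other 9. Among markers of cell types, 1 of 11 for hepatocytes fell, 1 of 14 for Kupffer cells and macrophages rose, 2 of 14 for lymphocytes, 1 of 4 for erythroid cells and 1 of 9 for the pancreas fell, and none of the 11 neutrophil and monocyte, 14 endothelial, 17 stellate, 5 cholangiocyte or 3 adipocyte markers passed the test. Of the 14 Kupffer cell and macrophage markers only 3 had a positive difference, and their median was -0.13. The rise of 1 of them was lost without animals 321, 326, 327, 362, 365, 366 or 369. Without animal 366, whose mean over this list was 0.52, 3 of these markers fell. The mean of the 4 erythroid markers, relative to the control mean, was between -0.40 and 0.35 in controls and between -1.40 and -0.37 in restricted mice. In whole liver, fewer cells of a type and less RNA per cell cannot be told apart.

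Restriction changed many genes in the progeroid livers, mostly by little. It raised 1186 genes (6.94% of those tested) and lowered 867 (5.07%), together 12.0%. The counts for gene lists and cell type markers are to be read beside these shares of all genes. The median change among them was 1.34-fold upwards and 1.32-fold downwards. At least 1.5-fold rises were seen in 329 genes and falls in 219, at least 4-fold rises in 19 and falls in 9. In 1534 genes (8.97%) the values of the 5 restricted animals did not overlap those of the 5 controls, among them 744 of the genes that rose and 516 of those that fell. The typical spread between animals was small, with a median SD over genes of 0.143 in controls and 0.129 in restricted mice. Without control animal 323 the number of genes that fell was 561.

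**Figure D1:**
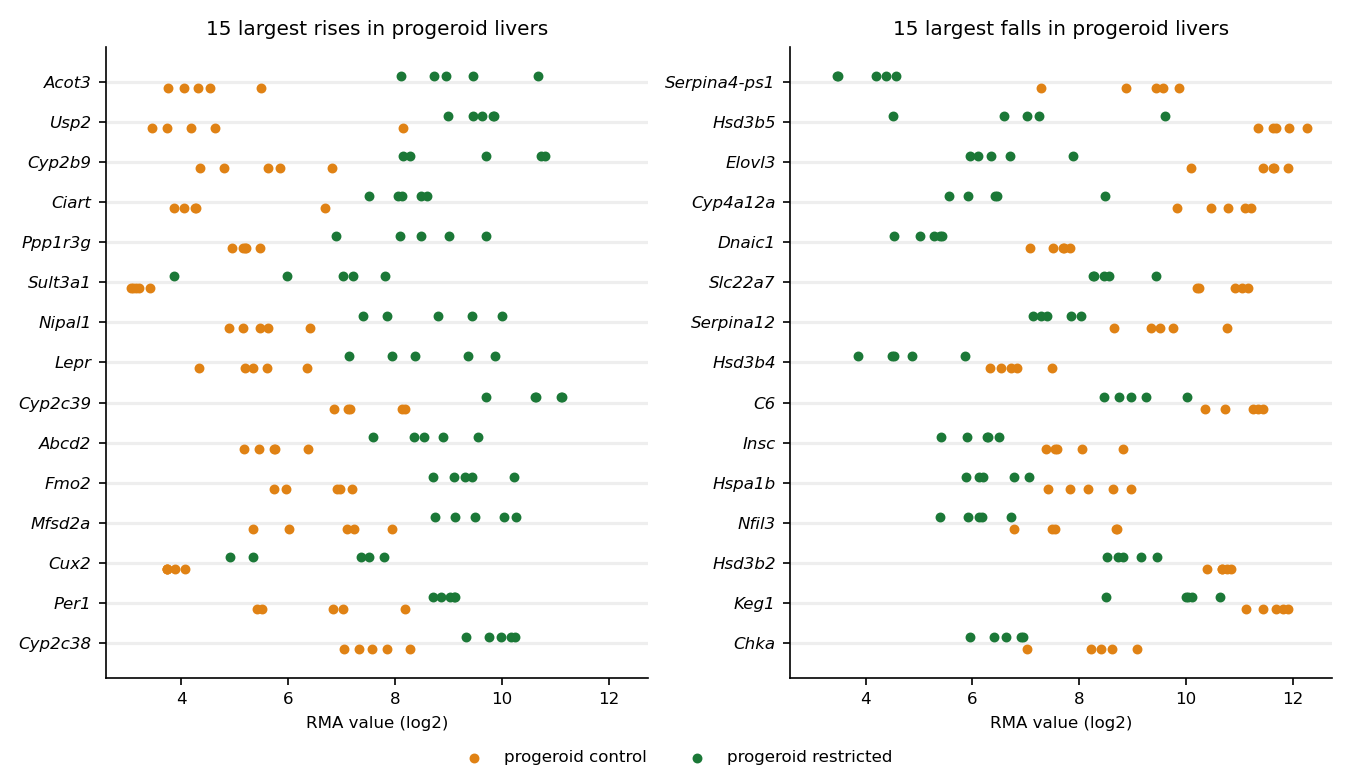
Values of the 15 genes with the largest rises (left) and the 15 with the largest falls (right) among those whose groups did not overlap. Each point is 1 animal, orange for progeroid control and green for progeroid restricted (n = 5 each), and the horizontal axis is the RMA value on the log2 scale. Control animal 327 is the point at 8.16 for Usp2 and at 6.70 for Ciart, apart from the other controls.

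Sex-biased liver genes held several of the largest changes. Of 15 measured male-biased genes 14 fell, against 5.07% of all genes, and none rose. Their median difference was -1.20 on the log2 scale against -0.014 over all genes. Of 19 female-biased genes 12 rose, against 6.94% of all genes, and none fell, with a median of 1.34. The groups did not overlap for 12 members of each list, and for 8.97% of all genes. The exception on the male side was Obp2a, near the lower end of the scale at 2.89 in controls and 2.88 in restricted mice.

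The male-biased enzymes fell in every restricted animal, but by very different amounts. Hsd3b5, a steroid reductase of the 3-beta-hydroxysteroid dehydrogenase family, lay at 11.34, 12.27, 11.62, 11.92 and 11.68 in the controls (animals 321, 323, 325, 326 and 327) and at 4.51, 7.02, 6.59, 9.60 and 7.25 in the restricted mice (animals 362, 365, 366, 368 and 369). Animal 368 kept the highest level and animal 362 the lowest. Cyp4a12a, which hydroxylates arachidonic acid, was between 9.82 and 11.22 in controls, 8.48 in animal 368 and between 5.56 and 6.45 in the other restricted mice. Elovl3, an elongase of very long-chain fatty acids, was 10.10 in control animal 327 and between 11.43 and 11.90 in the other controls, and fell to between 5.96 and 6.70 in 4 restricted animals and 7.88 in animal 368. Smaller falls were those of Cyp7b1, an oxysterol hydroxylase (-1.68 ± 0.21 SE; limma adjusted p = 3.06e-05), Slco1a1, an organic anion importer (-1.25 ± 0.16), Nudt7, a peroxisomal hydrolase of coenzyme A (-1.20 ± 0.10), and Mup3, a major urinary protein (-0.70 ± 0.18). Hsd3b2 and Hsd3b4, relatives of Hsd3b5, fell by 1.74 ± 0.15 and 2.06 ± 0.25. Genes of the Hsd3b, Cyp2b, Cyp2c, Cyp4a, Mup and Serpina1 families are close copies of each other, so a probe set may also read a relative.

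Among the female-biased genes, Sult3a1 and Cux2 rose from levels near the lower end of the scale. Sult3a1, a sulfotransferase, was between 3.05 and 3.42 in controls and at 7.03, 5.98, 7.81, 3.86 and 7.22 in the restricted mice, so animal 368 had hardly left the control range. Cux2, a transcription factor of the female liver, was between 3.73 and 4.07 in controls; it reached 7.52, 7.79 and 7.36 in animals 362, 365 and 366 but 4.91 and 5.35 in animals 368 and 369. Fmo2, a flavin monooxygenase, rose from 5.74–7.20 to 8.72–10.22 (2.80 ± 0.30), and Nipal1, a magnesium transporter, from 4.89–6.41 to 7.40–10.01 (3.19 ± 0.39). Lepr, the leptin receptor, which is on no list, rose from 4.34–6.35 to 7.14–9.88 (3.18 ± 0.49; adjusted p = 0.000275). Among the 14 male-biased genes that fell, animal 368 was the restricted animal nearest to the controls for 10, and among the 12 female-biased genes that rose, for 9. Over all genes that changed, this animal was the nearest for 464 of 1186 that rose and 373 of 867 that fell.

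Of 19 measured genes of the growth hormone axis itself 2 rose and 2 fell, where 6.94% of all genes rose and 5.07% fell. With single animals left out the rising genes numbered 1 (without 321, 326 or 368) to 3 (without 325), and the falling genes 1 (without 323, 325, 326, 362, 366 or 369) to 3 (without 321 or 327). Trim24, a transcriptional coregulator on this list, rose by 1.91 ± 0.17 (adjusted p = 5.68e-07). Ghr, the growth hormone receptor, fell from 12.24–12.40 to 11.75–11.97. The difference was -0.48 ± 0.07 (adjusted p = 0.000212). Igf1 was between 12.11 and 12.45 in controls and between 12.04 and 12.27 in restricted animals, a difference of -0.18 ± 0.06 that missed the threshold (adjusted p = 0.0675). Socs2, an inhibitor of growth hormone signalling, varied among the controls from 7.24 to 11.06 and did not pass (0.97 ± 0.62; adjusted p = 0.358).

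**Figure D2:**
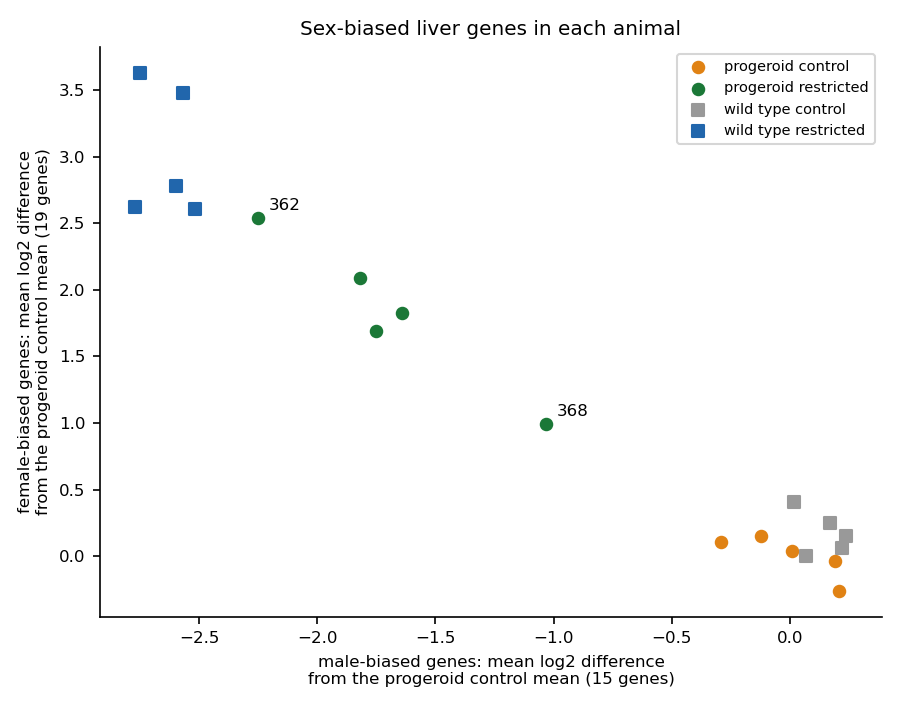
Mean level of 15 male-biased genes (horizontal axis) and 19 female-biased genes (vertical axis) in each of the 20 animals, as the mean log2 difference from the mean of the 5 progeroid controls. Circles are progeroid and squares wild type animals, 5 per group. Restricted progeroid animals spread between -1.03 and -2.25 on the horizontal and 0.99 and 2.54 on the vertical axis, with animals 368 and 362 at the ends, and restricted wild type animals lie beyond -2.52 and 2.61.

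Clock genes held further large changes. Of 28 measured, 14 rose and 5 fell, with a median difference of 0.56. The direction followed the role of the gene: 3 of the 4 activators fell, 6 of 9 repressors rose and 1 fell, 8 of 11 outputs rose and 1 fell, and none of 4 kinases and ligases passed the test. Among the repressors, Per1 was at 5.41, 5.52, 6.84, 7.02 and 8.19 in the controls and between 8.71 and 9.12 in the restricted mice, a rise by 2.37 ± 0.41 (adjusted p = 0.000754). Per3 rose from 5.35–8.16 to 8.22–8.72, and Cry2 from 7.12–7.71 to 8.24–8.42 (0.92 ± 0.11; adjusted p = 3.52e-05). Ciart, a repressor of CLOCK and BMAL1, was at 6.70 in control animal 327 and between 3.86 and 4.28 in the other controls, against 7.51 to 8.60 in restricted mice. The repressor that fell, Bhlhe41, was near the lower end of the scale, between 3.35 and 3.58 in controls and between 3.06 and 3.41 in restricted mice (-0.24 ± 0.08; adjusted p = 0.0415). Its call was lost without control animals 321, 323, 325 or 326 or restricted animals 366 or 368 (0.0667 to 0.12).

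The outputs Dbp and Tef, which encode factors that bind D-boxes, rose by 1.97 ± 0.45 and 1.26 ± 0.29, and the deubiquitinase Usp2 from 3.46, 3.73, 4.18, 4.64 and 8.16 in controls to between 9.00 and 9.86. The output that fell was Nfil3, which competes with DBP for its sites, from 6.78–8.70 to 5.40–6.72 (-1.77 ± 0.34). Among the activators Clock fell by 0.50 ± 0.13 (adjusted p = 0.0163). Arntl was at 8.16, 7.99, 7.49, 7.15 and 5.01 in the controls and at 6.37, 4.78, 4.37, 5.08 and 4.11 in the restricted animals, so the groups overlapped (-2.22 ± 0.65; adjusted p = 0.0288). Its call was lost without control animals 321, 323 or 325 or restricted animals 365, 366 or 369, with adjusted p between 0.055 and 0.0779.

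Control animal 327 held clock gene levels between those of the other controls and those of the restricted mice. It was the control nearest to the restricted group in all 14 clock genes that rose and in all 5 that fell. Its mean over the list was 0.47, against -0.21 to -0.01 in the other controls and 0.62 to 0.77 in the restricted mice. On the restricted side, animal 362 was the nearest to the controls for 8 of the 14 and 4 of the 5. Without animal 327 the counts were again 14 and 5, and the differences were larger, at 5.56 for Usp2 and 4.05 for Ciart. Without other single animals the rising genes numbered 12 to 14. The falling genes numbered 2 without control animals 321 or 323 or restricted animal 366, and 3 without control animal 325 or restricted animals 365 or 369. Animal 327 was also the one with the highest Gapdh 3' to 5' difference. Sampling time is not given, and its part in these differences was not tested. Restricted mice were fed just before the dark period and controls ate freely, so amount and timing of food cannot be told apart.

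**Figure D3:**
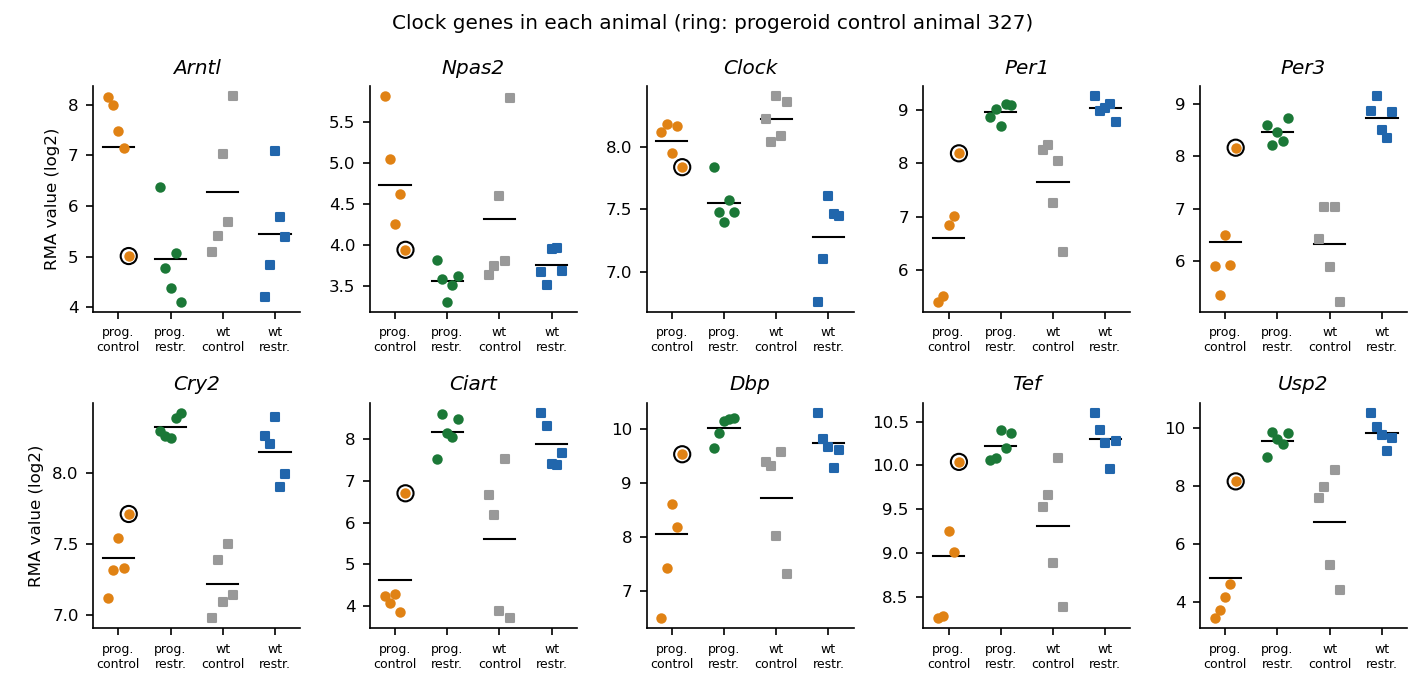
RMA values (log2, vertical axes, a scale for each gene) of 10 clock genes in every animal, by group; bars are means of 5. In the 3 activators Arntl, Npas2 and Clock the restricted progeroid animals lie low, and in the other 7 genes high; the ring marks progeroid control animal 327, the control nearest to the restricted animals in every panel.

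Promoter sequences of the clock genes are shown because their known binding sites can be read directly. The sequences are from RefSeq (assembly GRCm38.p6), each 5′ to 3′ on the strand of the gene and before its start, with the E-box CACGTG of CLOCK and BMAL1 in capitals for Ciart, Per1 and Tef and the D-box TTATGTAA of DBP and TEF in capitals for Per3. Ciart lies on the minus strand (chr3:95882247-95882364), Per1 on the plus strand (chr11:69098763-69098808), Tef on the plus strand (chr15:81802526-81802571) and Per3 on the minus strand (chr4:151044796-151044890).
Ciart: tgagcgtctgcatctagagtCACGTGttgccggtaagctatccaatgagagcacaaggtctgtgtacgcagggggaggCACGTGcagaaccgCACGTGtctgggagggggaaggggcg
Per1: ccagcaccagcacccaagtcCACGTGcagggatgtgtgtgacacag
Tef: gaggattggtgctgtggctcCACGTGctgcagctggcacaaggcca
Per3: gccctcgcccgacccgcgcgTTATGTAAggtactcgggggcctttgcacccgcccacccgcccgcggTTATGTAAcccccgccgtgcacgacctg

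Ciart carried 3 E-boxes within this stretch and Per3 2 D-boxes. The window from 250 bases before to 50 after the start was searched on both strands, and a gene counted if any of its promoters held the motif. The E-box was present in 7 of 23 clock genes with a promoter sequence (30.4%) and in 10.2% of all 13605 genes with one. It was present in 155 of 960 genes that rose (16.1%) and in 79 of 701 that fell (11.3%). The D-box was present in 2 clock genes and in 0.801% of all genes with a promoter sequence. These matches describe letters, not binding.

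Of 42 measured genes for folding and quality control in the endoplasmic reticulum, 17 fell and none rose, against 5.07% lower among all genes, and 2 of the 42 differences were above 0. The median difference was -0.28. By role, 6 of 12 chaperones and cofactors fell, 4 of 7 disulfide isomerases and oxidases, 4 of 11 sensors and degradation factors, and 3 of 12 translocon and glycosylation subunits. The falling genes numbered 16 to 19 when single progeroid animals were left out, and 1 rose without animal 327.

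Hspa5, the chaperone BiP, was at 12.60, 12.16, 12.08, 12.03 and 12.58 in the controls and at 11.71, 11.41, 11.64, 11.76 and 11.91 in the restricted mice, a fall by 0.60 ± 0.13 (adjusted p = 0.00383). Its exchange factor Hyou1 fell by 0.94 ± 0.16, from 8.13–8.66 to 7.14–7.70. Manf, a small secreted protein of the compartment, was higher in control animals 321 (12.13) and 327 (11.78) than in the other controls (10.78 to 11.23) and lay between 10.10 and 10.48 in restricted mice (-1.06 ± 0.23). The co-chaperone Dnajb11 fell by 0.72 ± 0.14 and Calr, the calcium-binding lectin calreticulin, by 0.43 ± 0.10. Among the isomerases Pdia6 fell by 0.68 ± 0.13 and Pdia4 by 0.45 ± 0.10. Ero1b, which reoxidises the isomerases, fell by 0.44 ± 0.12; without control animal 321 or restricted animal 365 its adjusted p was 0.0582 and 0.0516. Of the stress sensors, Ern1 (IRE1) was between 9.56 and 9.94 in controls and between 8.14 and 9.08 in restricted mice, with 2 of its 5 probe sets lower. Its target Xbp1 fell by 0.30 ± 0.08, with an adjusted p of 0.0702 when probe sets of shared sequence were dropped.

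**Figure D4:**
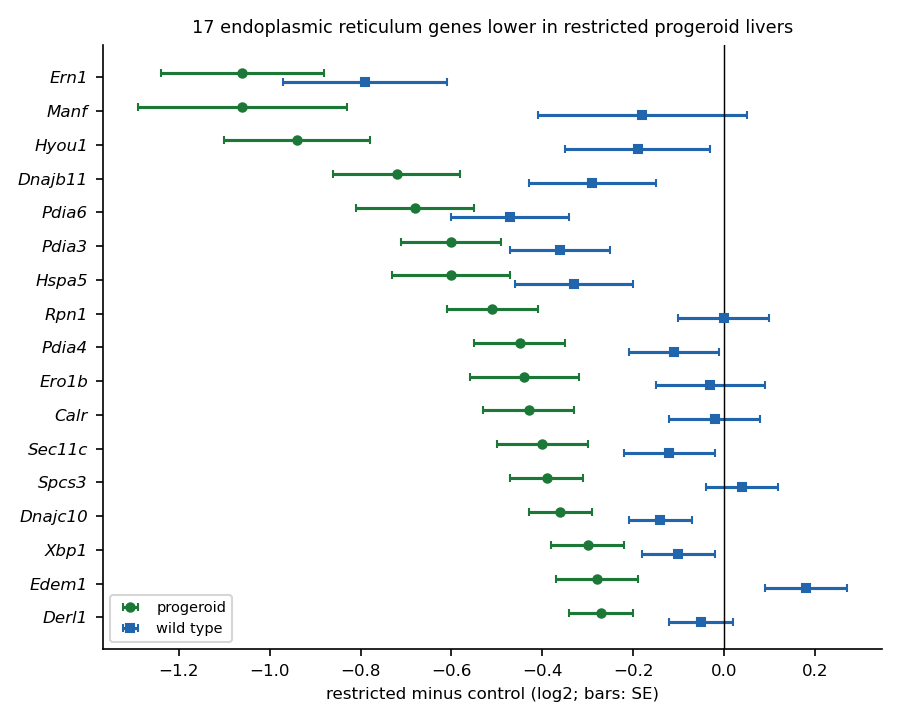
Difference between restricted and control animals (log2, horizontal axis; bars are SE) for the 17 endoplasmic reticulum genes that fell in progeroid livers, in progeroid (circles) and wild type livers (squares), n = 5 per group. All 17 progeroid values lie below 0 because the genes were selected for it; wild type values lie between -0.79 and 0.18.

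Promoters of 4 of the genes that fell hold the endoplasmic reticulum stress response element, the known site of ATF6 and XBP1. The element was searched on both strands as CCAAT and CCACG with any 9 bases in between, the end of which can share bases with an E-box, and it stands in capitals in the stretches below (RefSeq, GRCm38.p6, 5′ to 3′ on the strand of the gene). Hspa5 (chr2:34772005-34772063), Pdia6 (chr12:17266471-17266529) and Ero1b (chr13:12565662-12565720) lie on the plus strand and Calr (chr8:84847055-84847113) on the minus strand; in Calr and Ero1b the element runs in the reverse direction.
Hspa5: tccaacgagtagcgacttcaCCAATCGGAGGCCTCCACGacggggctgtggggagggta
Pdia6: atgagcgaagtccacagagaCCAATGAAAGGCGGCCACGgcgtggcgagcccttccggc
Calr: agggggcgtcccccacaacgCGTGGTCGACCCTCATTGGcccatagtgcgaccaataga
Ero1b: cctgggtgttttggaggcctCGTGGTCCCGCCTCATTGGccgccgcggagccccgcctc

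Of the 13605 genes with a promoter sequence 20 held this element in a promoter (0.147%). Of these, 10 belong to the 34 genes of the list that have a promoter sequence (29.4%). None of the 20 genes rose and 5 fell, which are the 4 above and Alg12, a mannosyltransferase for N-glycans that is on no list and was chosen after its values were seen (-0.60; adjusted p = 0.034). The call of Alg12 was lost without control animals 321 or 327 or restricted animals 362, 365, 366 or 369 (adjusted p 0.0523 to 0.1). Among the other members of the list that hold it, Creld2 differed by -1.18 (adjusted p = 0.0587), Syvn1 by -0.59 (0.109) and Hsp90b1 by -0.21 (0.118). Creld2 was at 10.11 and 9.94 in control animals 321 and 327, between 8.62 and 9.06 in the other controls and between 7.94 and 8.20 in the restricted animals.

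Of 18 heat shock proteins, chaperones mostly of the cytosol, 4 fell and none rose. Hsp90aa1 was at 10.73 and 10.59 in control animals 321 and 327, between 9.31 and 9.71 in the other controls and between 8.68 and 8.92 in restricted mice (-1.24 ± 0.24; adjusted p = 0.00187). The inducible Hspa1b fell from 7.42–8.97 to 5.88–7.06 (-1.80 ± 0.57; adjusted p = 0.0442), and this call was lost without control animals 323, 325, 326 or 327 or restricted animals 362, 365, 366 or 369 (0.0539 to 0.0953). The number of heat shock proteins that fell was 2 without animals 321, 326, 362, 366 or 369 and 1 without animals 327 or 365, and 7 when only the 10 progeroid arrays were fitted. Cirbp, an RNA-binding protein that rises in the cold, rose from 7.50–8.32 to 8.80–9.40 (1.25 ± 0.23, limma adjusted p = 0.0015). The other of the 2 cold-inducible genes measured differed by -0.46 and did not pass. Of 20 genes of the integrated stress response, 3 rose and 1 fell, against 6.94% and 5.07% of all genes. Trib3, a pseudokinase that inhibits AKT, was between 6.28 and 6.93 in controls and between 7.65 and 8.32 in restricted mice (1.31 ± 0.28), and Ddit4, an inhibitor of mTORC1, rose by 1.74 ± 0.43 with overlapping groups.

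Genes for the handling of fatty acids rose in part. Of 40 genes of fatty acid oxidation and ketogenesis 11 rose, against 6.94% of all genes, and none fell, with a median of 0.17. By role, 4 of 12 genes of mitochondrial, 4 of 10 of peroxisomal and 2 of 2 of omega oxidation rose. For omega oxidation 4 genes were listed and only 2 measured. Cyp4a12a, the arachidonic acid hydroxylase that fell (-4.12), is counted with the male-biased genes and is not on this list. None of 5 mitochondrial import genes passed, and 1 of the 10 other targets and regulators rose. For ketogenesis only 1 of 4 genes was measured, and it did not pass (-0.09). Ehhadh, the peroxisomal bifunctional enzyme, rose by 0.70 ± 0.12. Eci2, an enoyl-CoA isomerase, went from 10.46–11.13 to 11.21–11.43 (0.50 ± 0.12; adjusted p = 0.00849), and Decr2, a dienoyl-CoA reductase of peroxisomes, from 9.64–10.02 to 10.09–10.45. The number of rising genes was 7 without control animal 323. Restricted animal 362 stood apart, with a mean over the list of 0.58 against 0.17 to 0.25 in the other restricted mice; without it 8 genes rose.

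Acyl-CoA thioesterases, which release free fatty acids from coenzyme A, rose in 6 of 10 cases. Acot3 was at 4.05, 3.75, 4.53, 5.49 and 4.31 in the controls and at 10.68, 8.74, 9.47, 8.11 and 8.95 in the restricted mice. Its neighbours in the family, Acot1 of the cytosol and Acot2 of mitochondria, moved less, from 5.51–6.55 to 6.76–8.29 (1.41 ± 0.26; adjusted p = 0.00144) and from 5.86–6.68 to 6.69–8.08 (1.21 ± 0.24). Abcd2, which imports very long-chain acyl-CoA into peroxisomes and belongs to the fatty acid oxidation list, rose by 2.89 ± 0.33. Acot3 and Abcd2 are also counted among the female-biased genes that rose, so these lists are not independent. Of the genes for lipid uptake and storage 4 of 24 rose, all of them uptake genes. Mfsd2a, a transporter of lysophospholipids, was between 5.34 and 7.94 in controls and between 8.75 and 10.26 in restricted animals (2.80 ± 0.41; adjusted p = 0.000171), and Cd36, a fatty acid importer, rose by 0.80 ± 0.20.

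Several of these genes were lower in progeroid than in wild type mice on the control diet. The following comparisons share arrays with the diet effect, the progeroid controls or the restricted animals, and are given side by side without a test of their relation. For Mfsd2a the progeroid control mean was 6.73, the restricted mean 9.53, and wild type controls lay between 9.41 and 10.38; restricted progeroid animals differed from wild type controls by -0.32 (adjusted p = 0.601). For Acot1 these differences were -1.81 between genotypes on the control diet and -0.40 between restricted progeroid and wild type control mice (adjusted p = 0.28), and for Acot2 -1.74 and -0.52 (adjusted p = 0.116). Cyp2c38 and Cyp2c39 went beyond the wild type level: restricted progeroid animals exceeded wild type controls by 0.75 (adjusted p = 0.0107) and 1.53 (adjusted p = 0.000308). Serpina12 was already lower in progeroid controls (8.65 to 10.76) than in wild type controls (11.60 to 12.13) and fell further, to between 7.13 and 8.03.

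Synthesis of fatty acids and cholesterol showed wide spread within both groups and few calls. Of 24 genes of fatty acid and triglyceride synthesis 2 rose and 1 fell, and of 20 cholesterol synthesis genes none passed the test. The elongase Elovl3, which fell (-4.74), is counted with the male-biased genes and is not among these 24. Mean levels of the cholesterol list were 0.60 and 0.37 in control animals 321 and 323, between -0.52 and 0.03 in the other controls, 0.60 in animal 362 on restriction, and from -0.84 to 0.03 in the rest of that group. Fasn, fatty acid synthase, ranged from 9.59 to 12.56 in controls and from 9.39 to 11.77 in restricted animals (-0.35 ± 0.48; adjusted p = 0.706). Sqle, which makes squalene epoxide, ranged from 7.41 to 9.37 and from 6.23 to 8.97. The genes that passed were Lpin2, a phosphatidate phosphatase (0.84 ± 0.17), Mlxipl, the glucose-sensing factor ChREBP, which fell by 0.70 ± 0.13, and Lpin1 (1.50 ± 0.44), whose call was lost without control animals 321, 323 or 325 or restricted animals 365 or 366 (adjusted p 0.0642 to 0.0937).

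Among genes of glucose and glycogen metabolism 7 of 19 rose and 1 fell; 0 fell without animals 321, 323, 362, 365 or 366, 2 without 326 and 3 without 327. Ppp1r3g, which targets a phosphatase to glycogen, was between 4.95 and 5.47 in the controls and at 9.01, 9.70, 8.10, 6.90 and 8.48 in restricted mice (3.24 ± 0.41; adjusted p = 3.97e-05). Gys2, the liver glycogen synthase, rose by 0.80 ± 0.15 and the transaminase Tat by 0.59 ± 0.11. Of 39 genes that break down amino acids or make urea, 10 rose and 2 fell, against 6.94% and 5.07% of all genes. Asl and Ass1 of the urea cycle rose by 0.64 ± 0.10 and 0.55 ± 0.11, the proline oxidase Prodh by 0.61 ± 0.11, and Kynu and Kmo, which degrade kynurenine, fell by 0.56 ± 0.08 and 0.28 ± 0.07. Of 16 glucocorticoid-responsive genes 6 rose and none fell, with a median of 0.71. Fkbp5, a co-chaperone of the glucocorticoid receptor, rose from 7.50–8.60 to 9.17–10.11 (1.51 ± 0.33), and Mt1, a metallothionein, by 2.34 ± 0.51 with overlapping groups. This list shares Per1, Tat and Lpin1 with those above, and it had 4 rising members without control animals 321, 323 or 325 or restricted animals 365 or 366.

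Detoxification genes changed in both directions. Of 67 measured 23 rose and 10 fell, and of 18 glutathione transferases 7 rose and 1 fell, where 6.94% of all genes rose and 5.07% fell. The receptors Nr1i3 (CAR) and Nr1i2 (PXR), which govern many of these genes, rose without overlap, Nr1i3 from 8.12–9.12 to 9.58–9.88 and Nr1i2 from 7.66–7.96 to 8.11–8.64. Cyp2c39, an epoxygenase, rose from 6.86–8.18 to 9.70–11.12 and the bile salt and drug importer Slco1a4 by 1.98 ± 0.21, while Slc22a7, an organic anion transporter, fell from 10.20–11.15 to 8.25–9.43. Gstt3, Mgst3 and Gstt2 rose by 2.12 ± 0.24, 1.14 ± 0.15 and 1.02 ± 0.12. Of 21 NRF2 targets 3 rose and 1 fell: Cbr1, a carbonyl reductase, rose from 9.48–9.79 to 10.53–10.97 (1.11 ± 0.09), the quinone reductase Nqo1 by 1.18 ± 0.15 and the ferritin subunit Fth1 by 0.20 ± 0.05, which was lost without control animal 325 (adjusted p = 0.0549) or restricted animals 366 (0.0586) or 369 (0.0554), and Osgin1, an inhibitor of growth, fell by 1.37 ± 0.32. The falling detoxification genes numbered 5 without restricted animal 362, the falling NRF2 targets 3 without animals 327 or 368, and the falling glutathione transferases 2 without 327.

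Most complement genes fell. Of 15 measured, 10 fell and none rose, all 15 differences were below 0, and the median was -0.36. Components of the membrane attack complex moved most. C8a was between 12.10 and 12.62 in controls and at 9.85, 10.76, 10.94, 11.55 and 11.13 in restricted mice (-1.59 ± 0.21; adjusted p = 6.6e-05). C6 fell from 10.36–11.43 to 8.47–10.01, and is also counted among the male-biased genes; C8b fell by 1.55 ± 0.18 and C9 by 0.92 ± 0.14. Of 18 coagulation genes 1 rose and 1 fell, and the rise was lost without animals 321, 323, 362 or 368. Across both lists animal 362 was the restricted animal farthest from the controls and animal 368 the nearest in 10 of the 11 genes that fell; the 11 became 7 without control animals 323 or 326 or restricted animals 362 or 369, and 7 when only the progeroid arrays were fitted.

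Of 11 serpins of the A clade, secreted protease inhibitors and their relatives, 8 fell. Serpina4-ps1, annotated as a pseudogene, was between 7.28 and 9.86 in controls and between 3.46 and 4.56 in restricted animals. Serpina1a, Serpina1c and Serpina1d, copies of the gene for alpha-1-antitrypsin, fell by 0.27 ± 0.06, 0.32 ± 0.06 and 0.49 ± 0.10. In the acute phase response 3 genes of 31 rose and 4 fell, where 6.94% of all genes rose and 5.07% fell. Among those that fell was Saa3, a serum amyloid A protein, from 7.97–8.59 to 6.34–7.42 (-1.17 ± 0.18, limma adjusted p = 0.00024). The rising acute phase genes numbered 0 without animal 365, 1 without 321 or 323 and 5 without 327, and the falling ones 1 without 323, 326 or 362 and 2 without 325 or 327. Interferon response genes had 1 rise and 3 falls among 34, where 12.0% of all genes changed. Stat2 was lower by 0.67 ± 0.10. The rising interferon genes numbered 0 without animals 321 or 366, 2 without 327 and 3 without 362. None of 15 antigen presentation genes passed the test.

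Of 32 p53 targets 2 rose and 1 fell, where 12.0% of all genes changed. The rising targets numbered 1 without animals 321, 323, 365, 366 or 369, and the falling ones 2 without animals 321 or 368. Cdkn1a, the gene of p21, which halts the cell cycle, was at 7.49, 8.15, 7.64, 8.44 and 6.88 in the controls and between 6.15 and 6.88 in the restricted mice, a fall by 1.18 ± 0.27 (adjusted p = 0.0064); restricted progeroid animals stayed 0.83 above wild type controls (adjusted p = 0.0275). Of 47 DNA repair genes 8 rose and 3 fell, where 6.94% of all genes rose and 5.07% fell. The risers of nucleotide excision and crosslink repair included Fancc of the Fanconi complex (0.92 ± 0.10) and Ddb2, which recognises ultraviolet damage (0.55 ± 0.12), and those of strand break and base excision repair Brca1 (1.12 ± 0.19). The probe set used for Ercc1 fell from 5.14–5.55 to 4.49–5.08, by 0.51 ± 0.10 (adjusted p = 0.00197). This was seen in 1 of its 4 probe sets; with the mean of the probe sets the adjusted p was 0.137, and with probe sets of shared sequence dropped the difference was -0.01 (adjusted p = 0.966). Of 36 cell cycle genes 5 rose and none fell, where 6.94% of all genes rose and 5.07% fell. The median over this list was -0.09, and 13 of the 36 differences were above 0. All 5 genes that rose were in replication, among them Gmnn, the inhibitor of replication licensing (0.75 ± 0.11). These 5 became 2 without animal 366 and 3 without animals 321, 323, 326, 365 or 369. Of the fetal and imprinted growth genes Cdkn1c, an imprinted cell cycle inhibitor, rose from 4.56–5.13 to 5.65–6.68 (1.26 ± 0.17), and Meg3, an imprinted non-coding RNA, fell by 1.39 ± 0.32 with overlapping groups, in 2 of its 10 probe sets.

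Several housekeeping lists had shares of called genes at or below the 12.0% of all genes. Of 71 cytosolic ribosomal proteins 5 rose and none fell, of 78 subunits of the respiratory chain and ATP synthase 6 rose and none fell, and of 40 proteasome genes 2 rose. The ribosomal count was 2 without animals 323, 362 or 366, the respiratory count 2 without 362 and 3 without 325, 327, 366 or 369, and the proteasome count 1 without 321, 325, 327, 362, 365, 366 or 369. None of 29 ribosome biogenesis genes passed. In the ribosomal protein, respiratory and proteasome lists 63 of 71, 64 of 78 and 23 of 40 differences were above 0. Over all genes it was 7876 of 17097. In wild type livers 48, 22 and 3 genes of these lists rose and 1, 2 and 3 fell. In progeroid livers the list medians were small, at 0.09, 0.07 and 0.02. In bile acid metabolism 7 of 26 genes rose and 4 fell: Cyp39a1, an oxysterol hydroxylase, rose by 1.46 ± 0.23, and Slc10a2, a bile acid importer, fell by 1.63 ± 0.36. Cyp7a1, the rate-limiting enzyme of bile acid synthesis, ranged from 8.23 to 10.14 in controls and from 9.65 to 11.17 in restricted mice and did not pass (adjusted p = 0.153). Among the sirtuins Sirt3, a mitochondrial deacylase, rose by 0.41 ± 0.10. In the thyroid axis the deiodinase Dio1 fell by 1.24 ± 0.27 and Slc16a10, an iodothyronine transporter, rose by 0.88 ± 0.19.

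Restriction by the same percentages changed more genes in wild type littermates, 1696 higher (9.92%) and 2146 lower (12.6%). The 2 diet effects come from separate arrays, and across genes they correlated with Pearson's r = 0.701, given as a description because genes are not independent. Of the genes that rose in progeroid livers 56.7% rose in wild type livers as well, and these were 39.6% of the wild type risers; of those that fell 61.8% fell in wild type livers, 25.0% of the wild type genes that fell. Opposite calls were few, with 14 genes higher in progeroid and lower in wild type livers and 3 the reverse. The difference between the diet effects passed the test in 240 genes (1.40%), of which 176 (1.03%) were positive, meaning more upward or less downward in progeroid livers, and 64 (0.374%) negative. With weights for each array the numbers were 363 in all and 110 negative, and with single animals left out the total ran from 103 to 490. It was between 103 and 149 without progeroid animals 321, 366, 368 or 369 or wild type animals 401, 403, 423 or 424, 386 without progeroid animal 362 and 490 without wild type animal 421.

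The sex-biased genes moved less far in progeroid than in wild type mice for a part of the lists. The difference was positive in 5 of the 15 male-biased and negative in 3 of the 19 female-biased genes, and the median effects were -1.20 against -1.93 and 1.34 against 2.32. A male-biased gene that went the other way was Selenbp2, a selenium-binding protein, at -0.52 in progeroid and 0.08 in wild type livers. Its difference of -0.60 (limma adjusted p = 0.0496) missed the threshold in 16 of the 20 fits that left out 1 animal (0.0507 to 0.0936). Cyp4a12a fell by 4.12 in progeroid and by 7.91 in wild type livers, a difference of 3.80 ± 0.54 SE (limma adjusted p = 0.00192), and restricted wild type animals lay between 3.32 and 4.13, all below the progeroid animals. Cyp2b13 was between 3.64 and 5.72 in restricted progeroid and between 6.47 and 9.81 in restricted wild type mice (difference -3.75; adjusted p = 0.00747). Sult1e1, an estrogen sulfotransferase, started higher in progeroid controls (6.13 to 8.83) than in wild type controls (4.27 to 4.57), and both ended near each other, at 7.96–10.55 and 8.56–11.00 (difference -3.84; adjusted p = 0.0113). Cyp17a1, a steroid hydroxylase, reached 5.79–8.92 and 10.70–11.31; its difference of -3.15 (adjusted p = 0.0274) missed the threshold without progeroid animals 321, 327, 366 or 369 or wild type animals 401, 404, 423 or 424 (0.0502 to 0.0596).

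In fatty acid oxidation the difference was positive in 9 of 40 genes and negative in none. In wild type livers 15 of its genes fell and 3 rose, and in progeroid livers none fell and 11 rose. Eci2 differed by 0.91, Decr2 by 0.86 and the droplet protein Plin2 by 1.16, where the wild type changes were -0.42, -0.40 and -1.37. Acot1 differed by 1.76 (adjusted p = 0.0231). Without wild type animal 423 the adjusted p for the differences of Acot1 and Plin2 was 0.0517. Mfsd2a differed by 2.61 (adjusted p = 0.0268), which was lost without progeroid animals 323, 365 or 369 or wild type animals 401, 402, 403, 423 or 424 (0.0503 to 0.0586). Spc25, a kinetochore subunit, was between 6.80 and 7.62 in progeroid controls and between 7.25 and 8.05 in restricted progeroid mice, whereas wild type mice went from 6.99–7.65 to 4.94–6.04 (difference 2.40; adjusted p = 0.000189). Dnaic1, a dynein intermediate chain, fell from 7.08–7.82 to 4.54–5.43 in progeroid livers, near the range of wild type controls (4.81 to 5.96; difference of the diet effects -1.46, adjusted p = 0.0113). For the endoplasmic reticulum genes the difference passed in 2 of 42, both negative, although 17 fell in progeroid and 10 in wild type livers; none of the 17 that fell was among the 2. Complement genes fell in 10 and 11 of 15 cases, with a positive difference in 4.

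**Figure D5:**
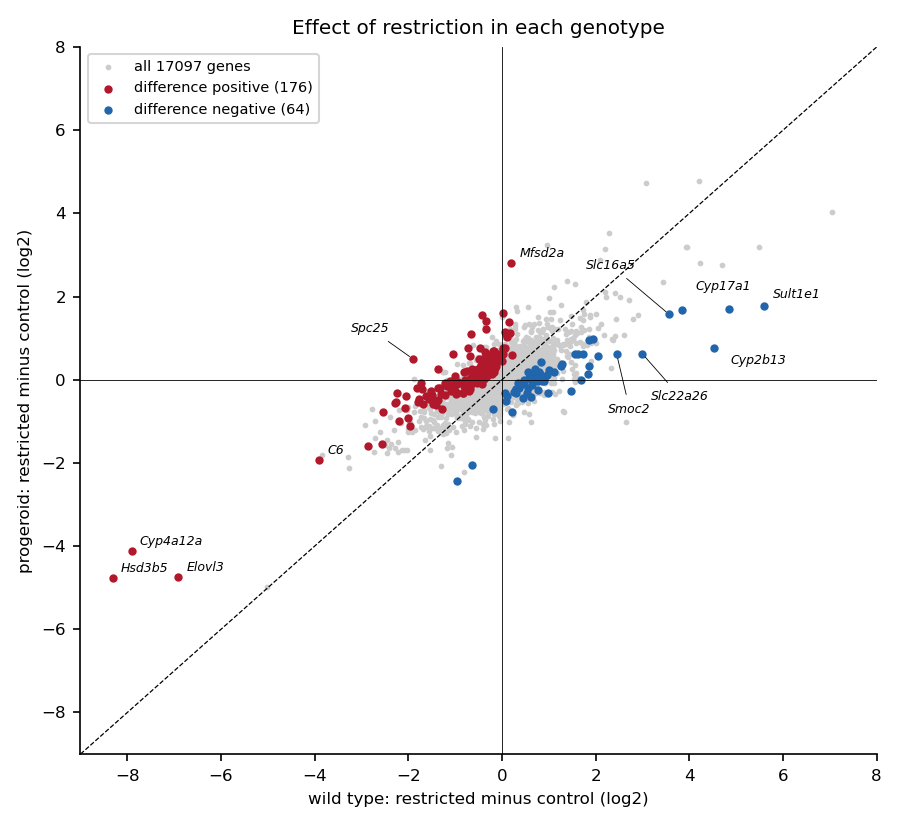
Effect of restriction in wild type (horizontal axis) and progeroid livers (vertical axis), as the log2 difference of means of 5 animals, for 17097 genes; the dashed line marks equal effects. Red and blue points are the 176 and 64 genes whose difference of effects was positive or negative at an adjusted p under 0.05. Cyp4a12a, Hsd3b5 and Elovl3 lie far left of the dashed line at the bottom, Sult1e1, Cyp17a1 and Cyp2b13 far right of it, and Mfsd2a lies at 2.80 in progeroid and 0.19 in wild type livers.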

How the data were processed

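Each of the 20 liver samples, 5 in each of 4 groups, is 1 array. The authors deposited a table of log2 values made by RMA (version not given in the sources used here), per the submitters' processing notes; RMA has no zero and compresses differences of dim probe sets. Of 45141 probe sets 104 controls were left out, and 28898 had 1 gene symbol in the platform annotation, 551 several and 15588 none. The probe set with the highest mean stood for each of 17097 genes. Array medians were 4.17 to 4.21. The number of arrays limits the precision.

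The main model, in limma 3.58.1 under R 4.3.3, held a mean for each group over the 20 arrays and used eBayes, with two-sided p-values adjusted by Benjamini-Hochberg, and the script was tested on simulated data. Groups came from the labels, which give animal numbers but no batch. The genes and lists were chosen with earlier results of these data known. Picked were the 15 largest rises and 15 largest falls whose groups did not overlap, and the 3 smallest p-values of each list. The 6 largest differences of the diet effects in each direction and Ercc1 were added. Not all of these are given a value in the text, and other list members are given by role. Measured list members without a value here entered the counts and medians but are not described singly. Alternatives were other fits, scaling, probe set choices, a minimum mean of 5, array weights and leaving out each animal; counts of lists under them were added after seeing the data. Promoters are RefSeq's, and 6 motifs were searched.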

Additional observations from a re-analysis of the deposited data

Results flagged for a closer look

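Single animals stood far from the other 4 of their group in 7 of 76 pairs of a named gene and a progeroid group, by Dixon's ratio above 0.71, which chance exceeds in about 1 in 20 groups. Control animal 327 was at 8.16 for Usp2 (others 3.46 to 4.64), at 6.70 for Ciart (3.86 to 4.28) and at 10.1 for Elovl3 (11.43 to 11.90). Control animal 323 was at 5.60 for Slc16a5 (6.87 to 7.14). Among restricted mice animal 368 was at 9.43 for Slc22a7 (8.25 to 8.56), animal 365 at 7.25 for Spc25 (7.94 to 8.05) and animal 366 at 5.72 for Cyp2b13 (3.64 to 4.14). For mean levels of gene lists this held in 3 of 106 pairs. Restricted animal 362 was at 0.58 for fatty acid oxidation (others 0.17 to 0.25) and at 0.28 for glutathione transferases (0.39 to 0.43), and control animal 321 at 0.25 for glutathione transferases (-0.11 to -0.03).

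Among the 15 largest rises, the 15 largest falls, the 6 largest differences in each direction and Ercc1, the effect of restriction differed between genotypes, in limma's test of the difference, for 14; other genes with such a difference are given with their lists. The fall was smaller in progeroid livers for Hsd3b5 (difference 3.55), Cyp4a12a (3.80), Elovl3 (2.18) and C6 (1.97), and larger for Dnaic1 (-1.46) and Hsd3b4 (-1.42). Mfsd2a (2.61) and Spc25 (2.40) had the more positive effect in progeroid livers. The effect was more positive in wild type livers for Sult1e1 (-3.84), Cyp2b13 (-3.75), Cyp17a1 (-3.15), Slc22a26 (-2.38), Slc16a5 (-2.0) and Smoc2 (-1.84). With each of the 20 animals left out in turn, the difference missed the threshold for Elovl3 without wild type animal 423 (limma adjusted p = 0.0551), for Hsd3b5 without progeroid animal 369 (0.0522) or wild type animal 423 (0.0551), and for Slc22a26 without progeroid animals 365, 368 or 369 or wild type animals 401 or 403 (0.0504 to 0.0597). For Hsd3b4 (adjusted p = 0.0497) it passed in 2 and for Smoc2, a matricellular protein (0.0362), in 6 of these 20 fits.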

How the results depend on the processing

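Restriction changed 1634 to 2445 genes in progeroid livers under 7 alternatives, against 2053. Leaving out single progeroid animals gave 1433 to 2074 genes, 872 to 1155 higher and 561 to 920 lower. In wild type livers single animals left out gave 3156 to 3803. The count of genes whose diet effect differed (240) became 363 with array weights, of which 110 were negative. With single animals left out it ran from 103 to 490, its positive part from 77 to 364 and its negative part from 26 to 126. The correlation of both diet effects lay between 0.647 and 0.733. Of 164 named genes past the threshold in progeroid livers 126 kept direction and call under all settings run, and 137 whenever a single animal was left out; none reversed. The cause of the shifts was not tested. Dim probe sets limit what can be read from small differences. No paired analysis was possible because the groups share no animal numbers.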

Other observations

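Autophagy and lysosome genes changed in 6 of 34 cases, 4 higher and 2 lower (1 lower without animals 321, 323, 327, 362 or 369). Over all genes 12.0% changed. Bnip3, which marks mitochondria for removal, rose from 11.16–12.01 to 11.96–12.44 (0.71 ± 0.13 SE, n = 5 per group; limma adjusted p = 0.000928), and the groups overlapped. Uvrag, a subunit of a lipid kinase complex that acts in autophagy, rose from 7.94–8.21 to 8.35–8.77 without overlap. Ulk2, a kinase at the start of autophagy, went the other way, from 8.60–9.18 to 7.70–8.47.

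Klb, the coreceptor of FGF21 and FGF15 in the liver, rose from 8.70–9.32 to 9.47–9.74 (0.64 ± 0.11). Uros, an enzyme of heme synthesis, fell from 8.69–9.05 to 7.70–8.56, and Alas2, the erythroid enzyme of the first step of that pathway, from 6.76–7.35 to 5.67–6.61. Cela1, an elastase counted here among the pancreas markers, fell from 10.20–10.50 to 8.48–9.63; it was the only one of 9 such markers that passed the test. Chka, a choline kinase, was at 7.02 in control animal 327, between 8.21 and 9.08 in the other controls and between 5.96 and 6.95 in restricted mice, so the same control animal that stood apart for clock genes was nearest to the restricted group.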
